A study of Mus musculus with 15 samples.

Results

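Kainic acid libraries carrying the letter H (KA_H) were set against untreated libraries carrying the letter L (CTRL_L) in an RNA sequencing series of brain from C57BL/6 mice. KA_H held 3 libraries treated with kainic acid (KA) and CTRL_L held 3 untreated libraries, so 6 of the 15 libraries of the series were compared. The remaining 9 libraries were 3 of KA with the letter L (KA_L) and 6 labelled with KA and APOE, 3 with each letter. The labels apply the KA model of temporal lobe epilepsy to every group, the untreated one included. They define neither letter and give no age, dose or time. Nothing in them ties the libraries of 1 group to different mice, and the tests may thus rest on technical rather than biological spread. Because no untreated H group was among the 15 libraries, treatment and letter differed together, and a difference that came with KA cannot be told apart from one that came with the letter H. The KA_L levels are therefore given beside those of KA_H and CTRL_L, as a description.

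Values were transcript abundance as TPM, which is scaled to transcript length and library size, so levels can be compared between genes. The table held 65964 entries, and tests were run on the 12221 that reached 1 TPM in 3 or more of these 6 libraries. Of these, 10390 had a gene symbol, 1710 were assembled loci with no gene name and 121 were identifiers with no symbol. Tests were run by limma on log2(TPM + 1), and an entry was called where its Benjamini-Hochberg adjusted p was under 0.05. Fold changes are given on that scale as KA_H minus CTRL_L, and they understate the change of a gene near 0.

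KA is an agonist of kainate-type glutamate receptors and is widely used to induce seizures in rodents. Microglia, the resident macrophages of the brain, keep a set of sensing genes such as P2ry12, Tmem119 and Cx3cr1 in the undisturbed state. Around damage they take up a disease-associated state with high Cst7, Spp1, Clec7a, Itgax, Lpl and Apoe, part of which depends on the receptor TREM2 and its adaptor TYROBP.

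The labels give brain as the tissue, yet microglial transcripts were abundant in all 6 libraries, choroid plexus transcripts in all but CTRL_L replicate 1, and neuron markers were near 0 or low. All 18 microglia markers reached 1 TPM in all 6 libraries, with a summed level of 25127 to 30948 TPM in KA_H and 15838 to 52742 TPM in CTRL_L. The 20 neuron markers summed to 0.08 to 2.92 TPM in KA_H and 21.4 to 66.8 TPM in CTRL_L, and none passed the filter. Gfap, the astrocyte intermediate filament gene, stood at 0, 0 and 0.95 TPM in KA_H and was listed at 0 in all 3 CTRL_L libraries. The 20 astrocyte markers together summed to 871 to 1122 TPM in KA_H and 450 to 1788 TPM in CTRL_L. The libraries also differed in how many entries they listed. Entries at 1 TPM or more numbered 13192 to 13635 in KA_H and 10706 to 11182 in CTRL_L, and 1991 tested entries had a 0 in a KA_H library, against 3805 in a CTRL_L library. Across genes, Spearman correlations ran from 0.602 to 0.646 between KA_H libraries, from 0.404 to 0.434 between CTRL_L libraries and from 0.405 to 0.479 between the groups. CTRL_L replicate 1 stood apart in choroid plexus transcripts, which summed to 140 TPM there, against 40077 and 24546 TPM in the other CTRL_L libraries and 33790 to 42107 TPM in KA_H. In bulk samples such as these, fewer cells of a type and less RNA per cell cannot be told apart.

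Among the genes that rose in KA_H were 12 of 29 disease-associated microglia genes, 3 of 12 chemokine genes and the apolipoprotein genes Apoe, Apoc1 and Apoc2, beside a larger set of genes that were at or near 0 in CTRL_L. Of the 12221 entries, 121 were called (0.99%), 102 higher in KA_H (0.835%) and 19 lower (0.155%). At an unadjusted p under 0.05 there were 1444 entries, 854 higher and 590 lower, where chance gives 611. The values of the 3 KA_H and 3 CTRL_L libraries did not overlap in any of the 121. The median log2 fold change of all tested entries was 0.03, and 0.52 with upper-quartile scaling, so list medians under that scaling are to be read against 0.52. Over all tested entries the groups did not overlap in 1056 with KA_H higher (8.64%) and in 1032 with KA_H lower (8.44%). Counts of list members called, without overlap or at an unadjusted p under 0.05 are to be read beside these counts of all 12221 entries.

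**Figure D1:**
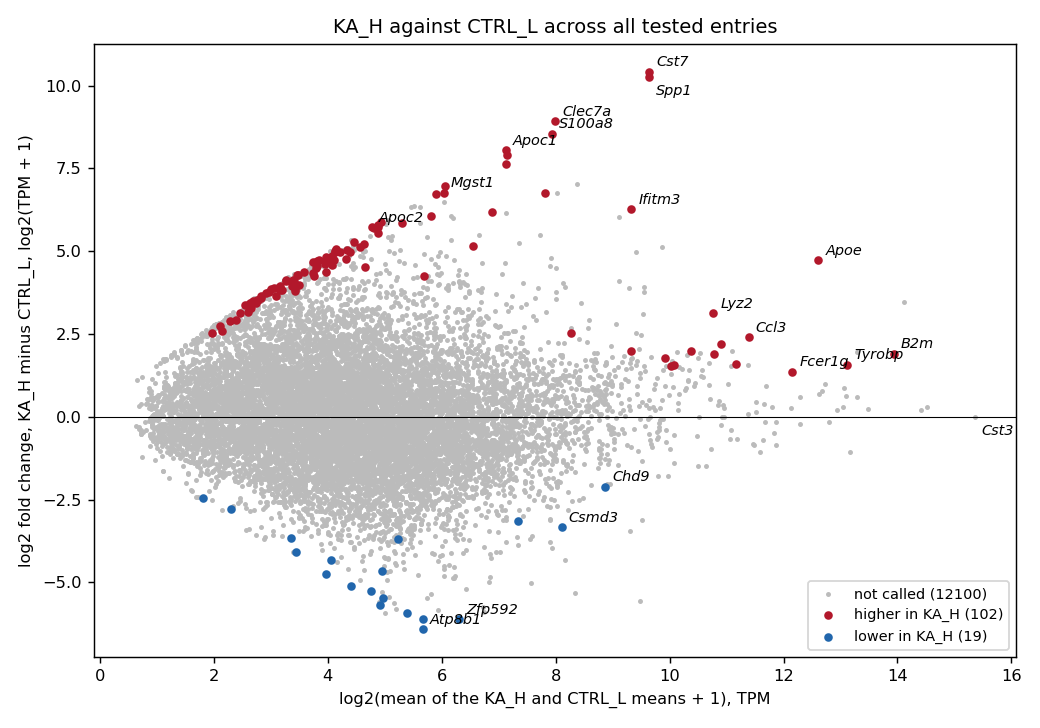
Log2 fold change of each of the 12221 tested entries, KA_H minus CTRL_L on the log2(TPM + 1) scale, against the log2 of its mean level in TPM + 1. Red points are the 102 entries called higher in KA_H, blue points the 19 called lower and grey points the 12100 not called. Most called entries lie along the outer edges, where 1 group is near 0 TPM, whereas Apoe, B2m, Tyrobp and Fcer1g were abundant in both groups.

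Most called entries were under 1 TPM throughout one of the groups. Of the 102 higher entries, 79 were under 1 TPM in all 3 CTRL_L libraries, and 47 of these were listed at 0 in each. Such entries passed the filter through KA_H alone and had to differ. Of the 19 lower entries, 11 were under 1 TPM in all 3 KA_H libraries and 6 were listed at 0 in each. Those 11 passed the filter through CTRL_L alone and likewise had to differ. A further 15 higher and 4 lower entries were at 1 TPM or more in all 6 libraries. They were Lyz2, Ccl2, Ccl3, Ccl4, Apoe, B2m, Cd63, Tyrobp, Fcer1g, Ly86, Rps25, Rps27, Rps29, Rpl41 and the pseudogene Gm14303 among the higher, and Csmd3, Clasp1, Gsk3b and Chd9 among the lower.

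The number of calls depended on single libraries. Leaving out KA_H replicate 1, 2 or 3 gave 36, 46 and 24 calls, and leaving out CTRL_L replicate 1, 2 or 3 gave 112, 92 and 103, some of them new. Of the 121 entries, 16 were called in all 6 of these fits and 35 in none. Each fit tested the same 12221 entries, chosen with all 6 libraries. With CTRL_L replicate 1, 2 or 3 left out, 65, 63 and 65 of the 121 were still called, and with KA_H replicate 1, 2 or 3 left out, 35, 39 and 23. When the 6 libraries were fitted alone, without the other 9 to inform the spread, 6 entries were called (Cst7, Spp1, Clec7a, Apoc1, Apoe and S100a8), all higher, and 1410 had an unadjusted p under 0.05. No called entry changed sign under any of the 21 alternative settings that tested it. Since the groups did not overlap in any call, only the settings that rescale the values could have changed a sign.

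The promoters of 4 called genes are shown as examples of windows with motif matches, Cst7 and Spp1 from the disease-associated list, B2m from the class I list and Ifitm3 from the interferon list. They were picked after the matches were seen, and other called genes, such as Apoe and Ccl3, had none of the capitalised matches. Each sequence covers 250 bases before to 30 bases after the transcription start, 5′ to 3′ on the strand of the gene, from RefSeq on GRCm38.p6. Capitals mark matches, on either strand, to the interferon-stimulated response element (ISRE, here 2 blocks of GAAA with any 2 bases between them), the AP-1 site (TGANTCA) or a PU.1-type site (GAGGAAG), PU.1 being the lineage factor of macrophages. The regions are chr2:150570165-150570444 (plus strand) for Cst7, chr5:104434861-104435140 (plus) for Spp1, chr2:122147437-122147716 (plus) for B2m and chr7:141010715-141010994 (minus) for Ifitm3.
Cst7: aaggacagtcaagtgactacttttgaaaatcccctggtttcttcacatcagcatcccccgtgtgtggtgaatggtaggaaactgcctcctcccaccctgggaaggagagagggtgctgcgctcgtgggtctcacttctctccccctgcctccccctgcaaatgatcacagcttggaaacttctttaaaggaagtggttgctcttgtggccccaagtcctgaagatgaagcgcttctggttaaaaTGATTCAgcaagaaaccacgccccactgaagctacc
Spp1: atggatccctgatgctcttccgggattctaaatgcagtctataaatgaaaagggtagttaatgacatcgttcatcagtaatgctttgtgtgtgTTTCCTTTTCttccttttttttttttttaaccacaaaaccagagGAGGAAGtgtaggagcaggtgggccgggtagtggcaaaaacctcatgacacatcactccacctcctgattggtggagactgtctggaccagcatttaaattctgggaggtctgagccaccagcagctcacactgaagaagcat
B2m: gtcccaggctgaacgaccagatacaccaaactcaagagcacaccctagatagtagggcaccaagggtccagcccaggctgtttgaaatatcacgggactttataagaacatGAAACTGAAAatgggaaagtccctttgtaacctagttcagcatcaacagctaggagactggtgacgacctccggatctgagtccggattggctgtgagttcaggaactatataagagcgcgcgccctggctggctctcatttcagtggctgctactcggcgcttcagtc
Ifitm3: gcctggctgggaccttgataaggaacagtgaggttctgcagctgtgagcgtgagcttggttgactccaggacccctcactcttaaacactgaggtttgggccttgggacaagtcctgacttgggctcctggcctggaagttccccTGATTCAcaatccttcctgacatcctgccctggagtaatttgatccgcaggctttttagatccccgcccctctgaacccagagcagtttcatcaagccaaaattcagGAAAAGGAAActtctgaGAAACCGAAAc

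The Cst7 window held an AP-1 match 6 bases before the start. Spp1 held an ISRE match and a PU.1-type match, at 157 and 113 bases before the start, and B2m an ISRE match at 139 bases before. Ifitm3 held an AP-1 match at 105 bases before the start and 2 ISRE matches, which began 2 and 19 bases after it. Motifs were sought in windows of 250 bases before to 50 after the start, which RefSeq gave for 72 genes called higher, 12 called lower and 7667 of all tested genes. ISRE matches were in 8 of the 72 windows of higher genes (11.1%), in 0 of the 12 of lower genes and in 246 of all 7667 (3.21%). The other 5 windows with the ISRE belonged to Gm11681, Hax1, Serpinb9, Sirpb1b and Tm4sf1. PU.1-type matches were in 12 of 72 (16.7%), 1 of 12 (8.33%) and 1080 of 7667 (14.1%), and AP-1 matches in 5 of 72 (6.94%), 0 of 12 and 355 of 7667 (4.63%). The E-box CACGTG was in 3 of 72 (4.17%), 0 of 12 and 796 of 7667 (10.4%), and the NF-Y motif CCAAT in 26 of 72 (36.1%), 3 of 12 (25%) and 2977 of 7667 (38.8%). No searched motif contains another, although matches to different motifs can share bases. A match describes these letters only and is no test of binding.

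Cst7, an inhibitor of lysosomal cysteine proteases, had the smallest adjusted p of the comparison. It stood at 1323, 1287 and 2181 TPM in KA_H, 331, 344 and 317 TPM in KA_L and 0.21, 0.13 and 0.06 TPM in CTRL_L (log2 fold change of KA_H over CTRL_L 10.42, SE 0.53, adjusted p = 3.42e-09, limma). Spp1, encoding the secreted phosphoprotein osteopontin, had 851, 1555 and 2381 TPM in KA_H, 112, 128 and 344 TPM in KA_L and 0.45, 0.12 and 0.04 TPM in CTRL_L (log2 fold change 10.27, SE 1.21, adjusted p = 0.000624). For both genes every KA_H library lay above every KA_L library, and every KA_L library above every CTRL_L library. Clec7a, encoding the glucan receptor dectin-1, had 637, 318 and 573 TPM in KA_H, 3.82, 205 and 66.8 TPM in KA_L and 0, 0 and 0.02 TPM in CTRL_L (adjusted p = 0.00117). These 3 genes were called under every alternative setting that tested them. They were under 1 TPM in all 3 CTRL_L libraries, so they passed the filter through KA_H alone and had to differ. The filter on 1 TPM in all 6 libraries did not test them.

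**Figure D2:**
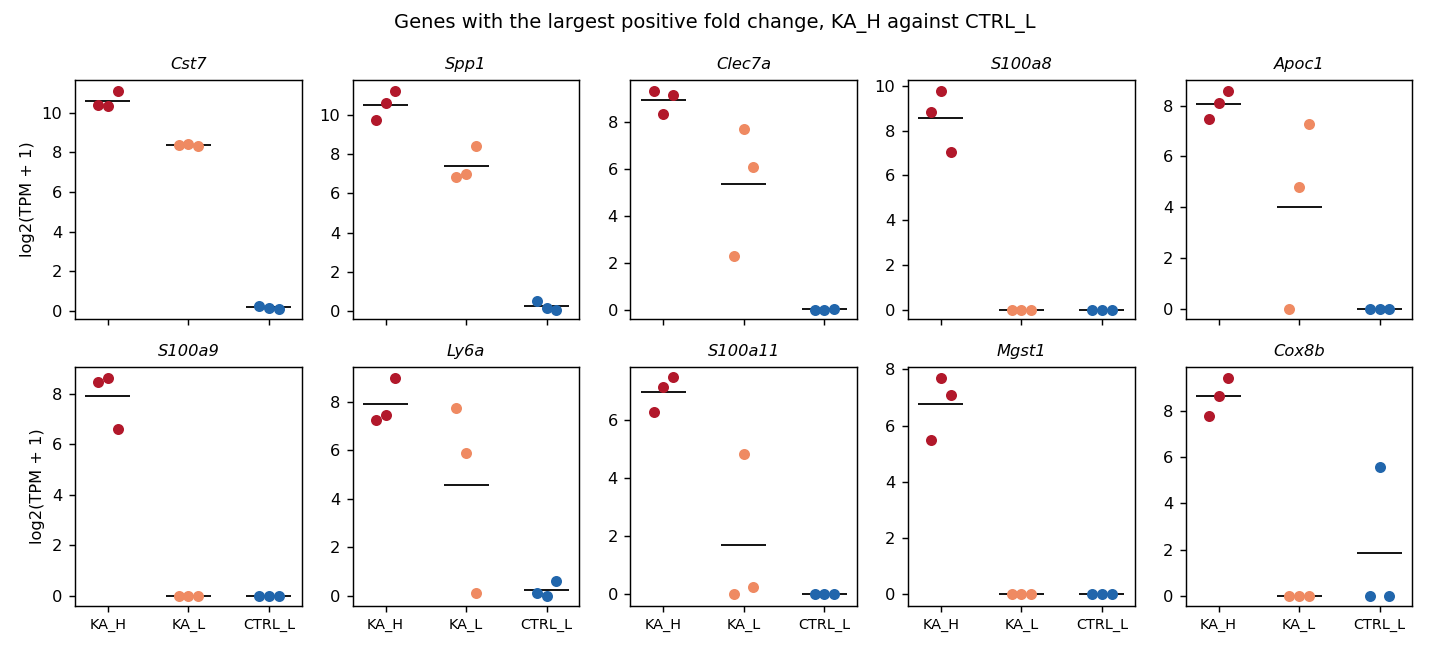
Level of the 10 genes with the largest positive fold change that met the naming rule, as log2(TPM + 1), in the KA_H, KA_L and CTRL_L libraries. Points are single libraries and black lines the mean of the 3 log2 values. KA_H lies above CTRL_L in all 10 panels, while KA_L ranges from intermediate in all 3 libraries (Cst7, Spp1) to 0 in all 3 (S100a8, S100a9, Mgst1, Cox8b).

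All 29 listed disease-associated microglia genes were tested and all 29 fold changes were positive, with a median of 2.50 beside 0.03 over all tested entries. Of these genes 12 rose, 0 fell and 17 did not pass. The groups did not overlap in 19, all higher in KA_H, beside 8.64% of all tested entries. Of the 29 genes, 8 were under 1 TPM in all 3 CTRL_L libraries, and 16 were at 1 TPM or more in all 6 libraries. The 8 passed the filter through KA_H alone and had to differ, and the called Cst7, Spp1 and Clec7a were among them. The summed level of the list was 76806 to 78142 TPM in KA_H, 24468 to 32196 TPM in KA_L and 17580 to 32227 TPM in CTRL_L. The called count was 5, 6 and 4 without KA_H replicate 1, 2 or 3, and 14, 11 and 11 without CTRL_L replicate 1, 2 or 3.

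Itgax, the integrin chain CD11c, had 52.4, 70.8 and 46.6 TPM in KA_H, 0.11, 0.57 and 1.26 TPM in KA_L and 0, 0.24 and 0 TPM in CTRL_L (log2 fold change 5.72, SE 1.11, adjusted p = 0.0184, limma). Csf1, the macrophage colony-stimulating factor that signals through Csf1r, had 44.9, 60.7 and 35.8 TPM in KA_H, 39.5, 42.1 and 20.7 TPM in KA_L and 0.9, 3.51 and 0 TPM in CTRL_L (adjusted p = 0.0184). Lyz2, the macrophage lysozyme gene, had 3332, 2037 and 3993 TPM in KA_H, 718, 1184 and 206 TPM in KA_L and 597, 256 and 260.3 TPM in CTRL_L (log2 fold change 3.13, SE 0.57, adjusted p = 0.0168). KA_L thus overlapped KA_H in Csf1 and overlapped CTRL_L in Lyz2 and Itgax. Itgax passed the filter through KA_H alone and had to differ. Each of the 3 calls was lost without KA_H replicate 1 (adjusted p = 0.0653, 0.0653 and 0.0617 for Itgax, Csf1 and Lyz2) and without KA_H replicate 3 (0.0724, 0.0695 and 0.0757). Itgax and Csf1 also lost it without KA_H replicate 2 (0.0713 and 0.0738). Cd63, a tetraspanin of late endosomes, had 1400.0, 1393 and 1700.3 TPM in KA_H, 288, 441 and 246 TPM in KA_L and 394, 632 and 322 TPM in CTRL_L (adjusted p = 0.0481). Its call held in 1 of the 6 fits that left out a library, the one without CTRL_L replicate 2.

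Several members missed the threshold narrowly. Igf1, an insulin-like growth factor, had 63.3, 86.6 and 119 TPM in KA_H, 110.3, 0.95 and 51.1 TPM in KA_L and 0.1, 0 and 0.06 TPM in CTRL_L (adjusted p = 0.0513, limma). Gpnmb, a lysosome-associated glycoprotein gene, had 56.6, 129 and 70.8 TPM in KA_H, 57.9, 0 and 0 TPM in KA_L and 0.02, 0 and 0 TPM in CTRL_L (adjusted p = 0.0530). Both were under 1 TPM in all CTRL_L libraries and passed the filter through KA_H alone, so the groups could not overlap in either. Cd52, a short surface glycoprotein gene, was at 1627, 1564 and 1809 TPM in KA_H and 0.79, 123 and 471 TPM in CTRL_L (adjusted p = 0.0601). Trem2 itself, the receptor gene, overlapped between the groups, at 879.7, 664 and 1011 TPM in KA_H, 337, 648 and 329 TPM in KA_L and 1006, 304 and 279 TPM in CTRL_L (log2 fold change 0.93, SE 0.45, adjusted p = 0.439). The protease genes Ctsb, Ctsd, Ctsl and Ctsz and the ferritin gene Fth1 also overlapped. Of 34 tested lysosomal genes 2 rose, Cst7 and Cd63, beside 0.835% of all tested entries, 0 fell and the median was 0.37. Cst7 was 1 of 2 members that passed the filter through KA_H alone.

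Receptor adaptor genes rose as well. Tyrobp, the adaptor that carries the signal of TREM2 and other receptors, had 10420, 14514 and 14355 TPM in KA_H, 4861, 7051 and 4119 TPM in KA_L and 7138, 3169 and 3631 TPM in CTRL_L (ratio of means 2.82, log2 fold change 1.57, SE 0.27, adjusted p = 0.0130, limma). Its mean level ranked 6th of all entries in KA_H and 20th in CTRL_L. Fcer1g, the shared gamma chain of Fc receptors, had 5171, 8129 and 6369 TPM in KA_H, 1837, 3197 and 1796 TPM in KA_L and 3175, 2034 and 2413 TPM in CTRL_L (ratio of means 2.58, adjusted p = 0.0184). For both genes every KA_L library lay below every KA_H library and the KA_L and CTRL_L libraries overlapped. Tyrobp kept its call in 5 of the 6 fits that left out a library and missed it without KA_H replicate 3 (adjusted p = 0.0652). Fcer1g missed it without KA_H replicate 2 or 3 or CTRL_L replicate 2 (0.0794, 0.0724 and 0.0614). Ly86, encoding the MD-1 partner of a Toll-like receptor relative, had 2699, 3425 and 3877 TPM in KA_H and 1961, 566 and 1183 TPM in CTRL_L (adjusted p = 0.0475). Ly86 was picked after its values were seen, and its call held only in the fit without CTRL_L replicate 1 of the 6.

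Of 24 tested phagocytic and Fc receptor genes 4 rose (Clec7a, Tyrobp, Fcer1g and Mfge8), beside 0.835% of all tested entries, 0 fell and the median was 1.15. Clec7a and Mfge8 passed the filter through KA_H alone and had to differ. Without KA_H replicate 1, 2 or 3 there were 3, 2 and 1 calls in that list, and without CTRL_L replicate 1, 2 or 3 there were 3, 2 and 3. Mfge8, a bridging protein that marks dying cells for uptake, had 11.8, 18.1 and 9.28 TPM in KA_H, 0, 0 and 0 TPM in KA_L and 0, 0 and 0.05 TPM in CTRL_L (adjusted p = 0.0480, limma). Its call held in 0 of the 6 fits that left out a library. Tlr2, a Toll-like receptor gene, had 74.3, 38.4 and 33.7 TPM in KA_H and 24, 0.13 and 0.78 TPM in CTRL_L, with no overlap, and did not pass (adjusted p = 0.249). Havcr2, an inhibitory receptor gene, lay the other way, at 20.8, 14 and 18.9 TPM in KA_H and 125, 70.5 and 44.2 TPM in CTRL_L (adjusted p = 0.310).

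Apolipoproteins carry cholesterol and other lipids between cells, and genes of the Apoe cluster were high in KA_H. Apoe had 16636, 10438 and 8767 TPM in KA_H, 3084, 3262 and 1970 TPM in KA_L and 161, 889 and 555 TPM in CTRL_L (log2 fold change 4.74, SE 0.86, adjusted p = 0.0168, limma). None of the 3 groups overlapped, and the exact two-sided permutation test of KA_H against CTRL_L gave p = 0.1, the smallest that 3 against 3 allows. The mean level of Apoe ranked 8th of all entries in KA_H and 175th in CTRL_L. Its call was lost without KA_H replicate 1, 2 or 3 (adjusted p = 0.0669, 0.0579 and 0.0652). Apoc1, a lipoprotein component gene, had 178, 274 and 381 TPM in KA_H, 0, 26.5 and 154 TPM in KA_L and was listed at 0 in all 3 CTRL_L libraries (adjusted p = 0.0130). It missed the call without KA_H replicate 3 (adjusted p = 0.0678). Apoc2, the activator of lipoprotein lipase, had 61.7, 53.3 and 42.9 TPM in KA_H and was listed at 0 in all 3 KA_L and all 3 CTRL_L libraries (adjusted p = 0.00117), and its call held in all 6 fits that left out a library. Apoc4 was at 104, 201 and 83.4 TPM in KA_H, 0.35, 34.9 and 0.49 TPM in KA_L and 0.09, 0.42 and 0.58 TPM in CTRL_L, without overlap, and missed the threshold (adjusted p = 0.0548). Apoc1, Apoc2 and Apoc4 were under 1 TPM in all CTRL_L libraries, so they passed the filter through KA_H alone and had to differ. Apoc4 and Apoc2 are neighbouring genes, and how reads shared by such genes were assigned was not given in the sources used here.

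Lpl, which releases fatty acids from lipoproteins, had 29.8, 24.3 and 32.1 TPM in KA_H, 51.7, 24.2 and 26.4 TPM in KA_L and 0.35, 0.08 and 0.97 TPM in CTRL_L (log2 fold change 4.38, SE 0.88, adjusted p = 0.0222, limma). Its KA_L values surrounded those of KA_H. Ch25h, which makes 25-hydroxycholesterol, had 23.1, 20.6 and 99.98 TPM in KA_H, 0.04, 2.24 and 0 TPM in KA_L and was listed at 0 in CTRL_L (adjusted p = 0.0291). Elovl6, a fatty acid elongase gene, had 24.2, 20 and 4.71 TPM in KA_H, 0, 0 and 0.29 TPM in KA_L and 0, 0.04 and 0 TPM in CTRL_L (adjusted p = 0.0291). Lpl lost its call without KA_H replicate 1, 2 or 3 (adjusted p = 0.0810, 0.0709 and 0.0999), Ch25h in each of the 6 fits that left out a library (0.0546 to 0.173) and Elovl6 in each except that without KA_H replicate 3 (0.0651 to 0.0963). Slc25a20, the carnitine carrier of fatty acid oxidation, had 29.4, 9.7 and 21.4 TPM in KA_H and 0.03, 0 and 0.8 TPM in CTRL_L (adjusted p = 0.0416) and kept its call in 0 of the 6. Lpl, Ch25h, Elovl6 and Slc25a20 all passed the filter through KA_H alone and had to differ.

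Of 26 tested cholesterol and lipoprotein genes 4 rose (Apoc2, Apoc1, Apoe and Ch25h), 0 fell and the median was 0.19, with 4 members under 1 TPM in all CTRL_L libraries. Without KA_H replicate 1, 2 or 3 this list had 2, 2 and 1 calls. The values of a pair of cholesterol synthesis genes lay the other way. Cyp51, a sterol demethylase gene, had 0, 0.04 and 2.11 TPM in KA_H and 5.27, 11.3 and 60.9 TPM in CTRL_L (adjusted p = 0.327, limma). Hmgcs1, an early enzyme of the pathway, had 14.7, 1.39 and 6.11 TPM in KA_H and 55.7, 114 and 26.8 TPM in CTRL_L (adjusted p = 0.289). The groups did not overlap in either gene and neither passed. Of the 26 members, these 2 did not overlap with KA_H lower, beside 8.44% of all tested entries. With KA_H higher, 5 did not overlap, beside 8.64%. The efflux transporter gene Abca1 overlapped, at 66.7, 70.5 and 65.2 TPM in KA_H and 78.7, 79.2 and 30.5 TPM in CTRL_L (log2 fold change 0.22, SE 0.67, adjusted p = 0.930). Of 19 lipid droplet and fatty acid genes 2 rose (Lpl and Elovl6), 0 fell and the median was 0.98. Both were under 1 TPM in all CTRL_L libraries and passed the filter through KA_H alone. Fabp5, a fatty acid binding protein gene, had 209.8, 98.7 and 111 TPM in KA_H and 0, 6.81 and 0 TPM in CTRL_L and just missed (adjusted p = 0.0548). Plin2, which coats lipid droplets, overlapped, at 14.4, 12.2 and 32.6 TPM in KA_H and 41.2, 49.1 and 9.52 TPM in CTRL_L (adjusted p = 0.928).

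The chemokine genes Ccl3, Ccl4 and Ccl2 rose in KA_H. Ccl3, an inflammatory chemokine that attracts leukocytes, had 3080.2, 5510.5 and 4677 TPM in KA_H, 3249, 4611 and 3440.3 TPM in KA_L and 1535, 875 and 395 TPM in CTRL_L (log2 fold change 2.41, SE 0.42, adjusted p = 0.0130, limma). Ccl4, a close relative of Ccl3, had 1762, 3774 and 3988 TPM in KA_H, 2019.6, 3827 and 1981 TPM in KA_L and 848, 686 and 462 TPM in CTRL_L (log2 fold change 2.21, SE 0.40, adjusted p = 0.0168). Ccl2, the CCR2 ligand that attracts monocytes, had 539.5, 400.4 and 635 TPM in KA_H, 253, 508 and 717 TPM in KA_L and 125, 83.1 and 67.8 TPM in CTRL_L (log2 fold change 2.52, SE 0.55, adjusted p = 0.0335). For all 3 genes KA_L overlapped KA_H and lay above every CTRL_L library. Ccl3 and Ccl4 lost the call without KA_H replicate 2 (adjusted p = 0.0579 and 0.0709) or 3 (0.0652 and 0.0816), and the Ccl2 call held only without CTRL_L replicate 1 of the 6. Of 19 listed chemokine genes 12 were tested, 3 rose, 0 fell and the median was 2.46. The groups did not overlap in 10 of the 12, all higher in KA_H, beside 8.64% of all tested entries. Of the 12, 3 were under 1 TPM in all CTRL_L libraries. The counts of calls were 2, 0 and 0 without KA_H replicate 1, 2 or 3.

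The other tested chemokine genes did not pass. Ccl12 had 2719, 3178 and 4564 TPM in KA_H, 2418, 3243 and 6638 TPM in KA_L and 1042, 842 and 709 TPM in CTRL_L (adjusted p = 0.0925, limma), with every KA_H library above every CTRL_L library. Cxcl10, an interferon-induced chemokine, had 55.7, 47.5 and 91.4 TPM in KA_H, 0.04, 90.8 and 249 TPM in KA_L and 0.06, 0 and 0 TPM in CTRL_L (adjusted p = 0.148). Ccl5 had 356, 79.6 and 125 TPM in KA_H and 0, 0 and 38.6 TPM in CTRL_L (adjusted p = 0.215). Of 14 tested cytokine and mediator genes 1 rose, Csf1, 0 fell and the median was -0.17, which became 0.40 with upper-quartile scaling and 0.22 with quantile normalization. Tnf overlapped between the groups, at 8.15, 21.2 and 28.1 TPM in KA_H and 31.2, 0 and 1.7 TPM in CTRL_L (adjusted p = 0.684).

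Antigen presentation and interferon genes gave 2 calls. B2m, the light chain of MHC class I, had 20086, 30146 and 23859 TPM in KA_H, 7810.0, 8625 and 8137 TPM in KA_L and 6871, 8041 and 4955 TPM in CTRL_L (ratio of means 3.73, log2 fold change 1.91, SE 0.24, adjusted p = 0.00111, limma). Every KA_H library was above every library of the other 2 groups, which overlapped, and the call held in all 6 fits that left out a library. Ifitm3, an interferon-induced membrane protein gene, had 1016, 934 and 1776 TPM in KA_H, 101, 217 and 248 TPM in KA_L and 0.13, 57.2 and 54.4 TPM in CTRL_L (log2 fold change 6.27, SE 1.07, adjusted p = 0.0130), with the 3 groups apart. It missed the call without KA_H replicate 3 (adjusted p = 0.0652). Beside these, the heavy chain gene H2-K1 had 1084, 987 and 776 TPM in KA_H and 703, 192 and 540.3 TPM in CTRL_L, without overlap and without a call (adjusted p = 0.324). Heavy chain genes are near copies of each other, so their reads can be split and the H2-K1 values are uncertain.

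Of 18 class I and immunoproteasome genes 1 rose, B2m, 0 fell and the median was 1.40, and of 10 class II genes 0 were called by limma, 1 at an unadjusted p under 0.05, with a median of 1.60. Cd74, the class II invariant chain, ranged widely within both groups, at 1551, 187 and 951 TPM in KA_H and 137, 52.8 and 981 TPM in CTRL_L (adjusted p = 0.480, limma). Of 23 interferon response genes 1 rose, Ifitm3, 0 fell and the median was 2.60. The groups did not overlap in 12 of the 23, all higher in KA_H, beside 8.64% of all tested entries. Of the 23, 4 were under 1 TPM in all CTRL_L libraries. Ifi27l2a had 1650.5, 1086 and 891 TPM in KA_H, 608, 303 and 431 TPM in KA_L and 0.28, 128 and 305 TPM in CTRL_L (adjusted p = 0.0847). Ifi204, a DNA sensor gene, had 56.2, 33.3 and 16.4 TPM in KA_H and 0, 0.02 and 0 TPM in CTRL_L (adjusted p = 0.0926). Of 12 complement genes 1 rose, Itgax, which passed the filter through KA_H alone. The C1q genes did not pass, with C1qb at 8627, 7282 and 10153 TPM in KA_H and 8198, 2391 and 4236 TPM in CTRL_L (adjusted p = 0.251).

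Genes of the homeostatic state had lower values in KA_H in most cases but gave no calls. Of 18 homeostatic microglia genes 17 had a negative fold change, and 7 did not overlap, all lower in KA_H, beside 8.44% of all tested entries. Of the 18, 0 were called by limma, against 7 at an unadjusted p under 0.05, all lower, beside 590 of all 12221 tested entries. The median was -0.92, and -0.31 with upper-quartile scaling. Selplg, the P-selectin ligand gene, had 868, 985 and 432 TPM in KA_H, 1115, 1086 and 999.5 TPM in KA_L and 3067, 1699 and 1582 TPM in CTRL_L (log2 fold change -1.49, SE 0.36, adjusted p = 0.0591). Crybb1, a crystallin gene of immature and homeostatic microglia, had 58.3, 6.37 and 20.2 TPM in KA_H and 269, 83.5 and 219 TPM in CTRL_L (adjusted p = 0.149). Tmem119 had 101, 86.4 and 63.4 TPM in KA_H, 134, 193 and 118 TPM in KA_L and 352, 144 and 195 TPM in CTRL_L (adjusted p = 0.298). The receptor gene Csf1r had 289.6, 255 and 209 TPM in KA_H and 950.2, 501 and 432 TPM in CTRL_L (adjusted p = 0.236). P2ry12 overlapped, at 1481, 2699 and 3183 TPM in KA_H and 9373, 2398 and 3397 TPM in CTRL_L. Cst3, the cystatin C gene and the most abundant transcript over the 6 libraries, had 37859.8, 36765 and 45644 TPM in KA_H and 69311, 30168 and 31371 TPM in CTRL_L (log2 fold change -0.02, SE 0.29). CTRL_L replicate 1 held the highest value of P2ry12, Cst3, Selplg, Tmem119 and Csf1r, and its microglia markers summed to 52742 TPM against 15838 and 21879 TPM in the other CTRL_L libraries. With that library left out, 0 of the 18 were called.

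Immediate early genes, the fast transcriptional response to stimulation, mostly had lower values in KA_H and did not pass. Of 18 tested members 0 were called by limma, against 6 at an unadjusted p under 0.05 (1 higher and 5 lower). Of all 12221 tested entries, 854 were higher and 590 lower at that level. The median was -0.88, or -0.26 with upper-quartile scaling. The groups did not overlap in 10 with KA_H lower, beside 8.44% of all tested entries. Fos had 537, 706 and 519.6 TPM in KA_H, 1829.7, 2479.8 and 2084 TPM in KA_L and 1832, 1269.6 and 1590.0 TPM in CTRL_L (log2 fold change -1.41, SE 0.33, adjusted p = 0.0518, limma). Dusp1, a phosphatase of MAP kinases, had 437, 385 and 385 TPM in KA_H, 651, 855 and 691 TPM in KA_L and 1581, 865 and 748 TPM in CTRL_L (adjusted p = 0.0862). In both, KA_H lay below KA_L as well as below CTRL_L. Ier3 went the other way, at 147, 52.1 and 85.7 TPM in KA_H and 0.06, 0 and 2.34 TPM in CTRL_L (adjusted p = 0.0660). Of 27 microglial transcription factor genes 0 were called by limma, against 4 at an unadjusted p under 0.05, all lower, beside 590 of all 12221 tested entries. Of the 27 fold changes 21 were negative. Of the 27, 8 did not overlap, all lower in KA_H, beside 8.44% of all tested entries. Of 21 heat shock and unfolded protein response genes 0 were called by limma, against 5 at an unadjusted p under 0.05 (1 higher and 4 lower). These counts stand beside 854 higher and 590 lower of all 12221 tested entries. The median of the 21 genes, -0.44, became 0.18 with upper-quartile scaling.

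**Figure D3:**
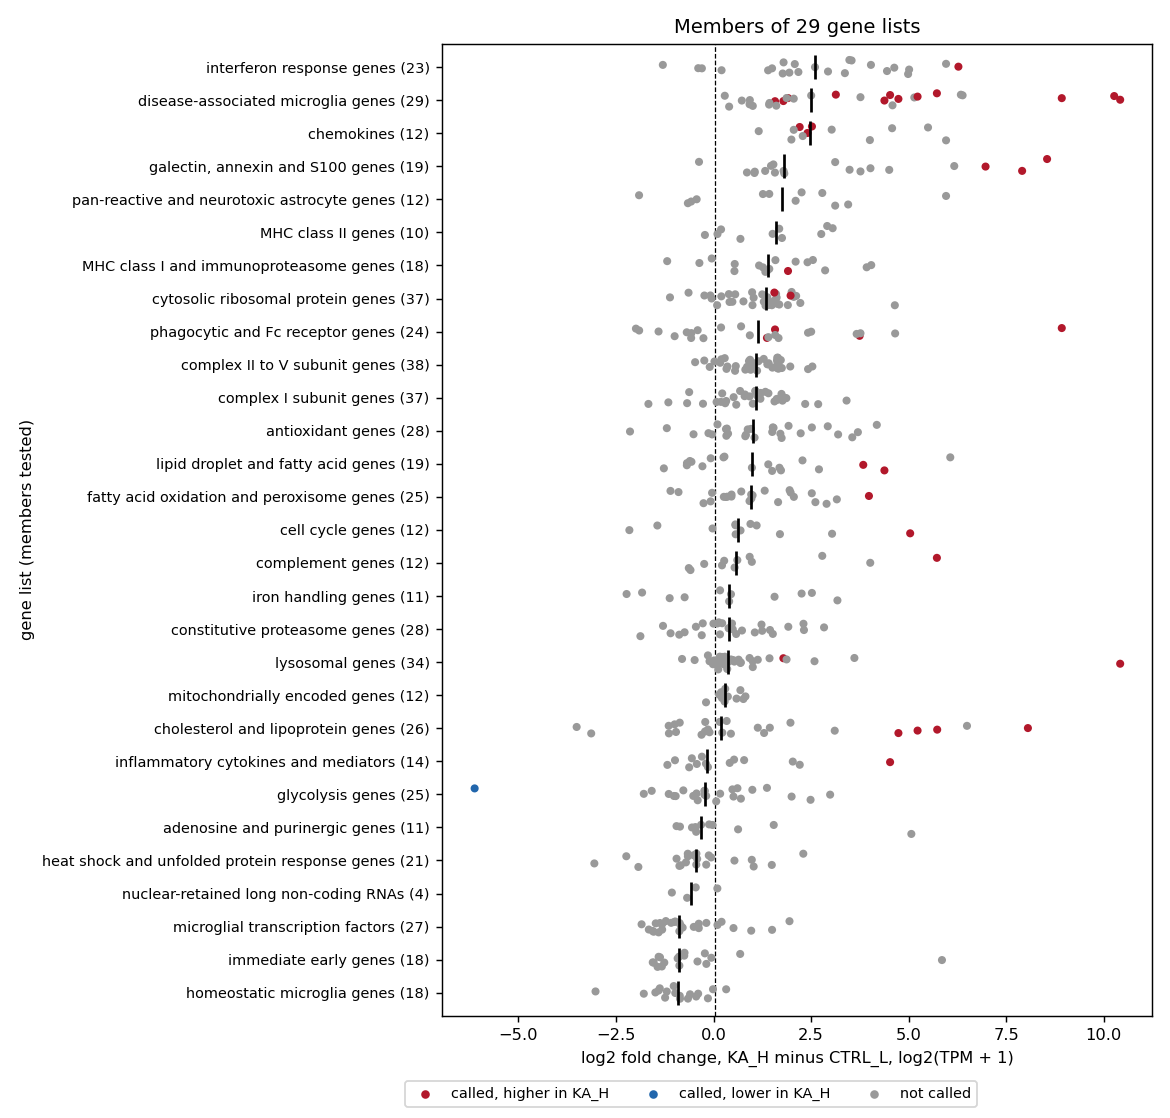
Log2 fold change, KA_H minus CTRL_L on the log2(TPM + 1) scale, of every tested member of 29 gene lists, with the number of tested members beside each name. Points are genes (red called higher in KA_H, blue called lower, grey not called), thick bars the median of each list and the dashed line the median of all 12221 tested entries, 0.03. The interferon, disease-associated microglia and chemokine lists have medians of 2.60, 2.50 and 2.46, and the homeostatic list lies lowest at -0.92.

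Ribosomal and respiratory chain genes had mostly positive fold changes and few calls. Of 37 tested cytosolic ribosomal protein genes 2 rose (Rps27 and Rps29), 0 fell and the median was 1.33. Of the 37, 19 did not overlap with KA_H higher and 1 with KA_H lower, beside 8.64% and 8.44% of all tested entries. Rps27 had 1503, 1738 and 1568 TPM in KA_H, 1097, 1209 and 701 TPM in KA_L and 387, 809.8 and 511 TPM in CTRL_L (log2 fold change 1.56, SE 0.35, adjusted p = 0.0387, limma). Rps29 had 614, 1260.3 and 1166 TPM in KA_H, 222, 345 and 447 TPM in KA_L and 236, 410.3 and 153 TPM in CTRL_L (adjusted p = 0.0480). Rps25 and Rpl41 also rose (adjusted p = 0.0194 and 0.0262) but are not on the list, and their calls held in the fits without CTRL_L replicate 1 or 3 alone. These 4 genes have near-identical copies, so reads can be split among them and the values are uncertain. The calls of Rps27 and Rps29 held in the fit without CTRL_L replicate 2 and in no other of the 6.

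The nuclear-encoded subunits of the respiratory chain and ATP synthase numbered 75, 37 of complex I and 38 of complexes II to V. None was called by limma, against 21 at an unadjusted p under 0.05, all higher, beside 854 of all 12221 tested entries. The medians were 1.07 and 1.08. Of the 75, 30 (40%) did not overlap with KA_H higher and 2 with KA_H lower, beside 8.64% and 8.44% of all tested entries. Upper-quartile scaling called 3 subunits of complex I and 9 of complexes II to V, all higher. Cox6b1 had 1605, 1638 and 1963 TPM in KA_H, 170.1, 545 and 439.8 TPM in KA_L and 199, 729.6 and 592 TPM in CTRL_L (adjusted p = 0.0785). Ndufv3 had 515, 639 and 712 TPM in KA_H, 78.8, 269 and 277 TPM in KA_L and 27.7, 128 and 239.9 TPM in CTRL_L (adjusted p = 0.0705). Of 12 mitochondrially encoded genes 0 were called by limma, against 3 at an unadjusted p under 0.05, with a median of 0.29, which became -0.05 with quantile normalization. These genes have nuclear copies that can share their reads. Among them mt-Co1, a cytochrome c oxidase subunit, had 7241, 9329 and 8003 TPM in KA_H, 2498, 1508 and 1247 TPM in KA_L and 4659, 4060 and 5838 TPM in CTRL_L (adjusted p = 0.253). Of 14 choroid plexus markers 13 had positive fold changes, 1 had an unadjusted p under 0.05 and 0 were called by limma. They summed to 140 TPM in CTRL_L replicate 1. That library was lowest of its group in Cox6b1, Ndufv3 and the summed complex I subunits (5735 against 9608 and 11964 TPM). It was highest in Ndufs6 (138 against 0 and 115 TPM). The part of the choroid plexus markers in these differences was not tested.

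Many of the largest fold changes belonged to genes at or near 0 in CTRL_L. Mgst1, a microsomal glutathione transferase gene, had 44.3, 208 and 135 TPM in KA_H and was listed at 0 in all KA_L and CTRL_L libraries (adjusted p = 0.00333, limma). Cox8b, an isoform of a cytochrome c oxidase subunit best known from heart and muscle, had 217, 398 and 686 TPM in KA_H, 0 in all KA_L libraries and 0, 46.7 and 0 TPM in CTRL_L (adjusted p = 0.0191). Mgst1 was called in all 6 fits that left out a library, but it passed the filter through KA_H alone and had to differ. Cox8b held its call without CTRL_L replicate 2 alone. Ly6a, the surface protein known as Sca-1, had 150.0, 174 and 508 TPM in KA_H, 213, 58 and 0.1 TPM in KA_L and 0.09, 0 and 0.55 TPM in CTRL_L (adjusted p = 0.0387). Its call held in 0 of the 6, and Ly6a also passed the filter through KA_H alone.

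The calcium-binding S100 genes S100a8, S100a9 and S100a11 rose, out of 19 tested galectin, annexin and S100 genes with a median of 1.81 and 5 members under 1 TPM in all CTRL_L libraries. S100a8 had 457, 873 and 129 TPM in KA_H and S100a9 354, 399 and 96.4 TPM, and both were listed at 0 in all KA_L and CTRL_L libraries (adjusted p = 0.0234 and 0.0266, limma). S100a11 had 76.5, 141 and 178 TPM in KA_H, 0, 27.6 and 0.17 TPM in KA_L and 0 in all CTRL_L libraries (adjusted p = 0.0235). The 3 calls were lost in each of the 6 fits that left out a library, with adjusted p up to 0.0820, 0.088 and 0.114. All 3 genes passed the filter through KA_H alone and had to differ. S100a8 and S100a9 are the most abundant transcripts of neutrophils. The 12 neutrophil markers summed to 347 to 1302 TPM in KA_H and 0 to 0.05 TPM in CTRL_L. Of the 12, 11 were at 0 in all CTRL_L libraries and 10 were below the filter. Just 3 (Ly6g, Ltf and Elane) were listed at 0 in all KA_H libraries, and these were at 0 in all 6 libraries. Without S100a8 and S100a9, which are on that list, the other 10 markers summed to 193, 31.1 and 121 TPM in KA_H and 0, 0.02 and 0.05 TPM in CTRL_L. In the KA and APOE libraries with the letter H, the 12 markers summed to 11.3, 1262 and 0.02 TPM. Red blood cell markers summed to 384 to 4092 TPM in KA_H and 0.1 to 126 TPM in CTRL_L. Their part in the S100 result was not tested.

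Further genes at or near 0 in CTRL_L had other functions, and those given here apart from Birc5 were picked after their values were seen. Psat1, an enzyme of serine synthesis, had 46.1, 103 and 81.2 TPM in KA_H, 61.4, 51.6 and 198 TPM in KA_L and 0, 1.14 and 0 TPM in CTRL_L (adjusted p = 0.00329, limma), and was called in all 6 fits that left out a library. Stat4, a transcription factor activated by interleukin 12, had 7.68, 20.2 and 16.5 TPM in KA_H and 0, 0.13 and 0.46 TPM in CTRL_L (adjusted p = 0.0130), also called in all 6. Birc5, which encodes the mitotic protein survivin and was on the cell cycle list, had 53.3, 14.2 and 48.4 TPM in KA_H and 0.08, 0.03 and 0.03 TPM in CTRL_L (adjusted p = 0.0266) and was called in 1 of the 6, that without KA_H replicate 2. It was the sole call among 12 tested cell cycle genes. Serpinb9, an inhibitor of granzyme B, had 17.5, 33 and 30.1 TPM in KA_H and 0.02, 0 and 0 TPM in CTRL_L (adjusted p = 0.0184). It missed the call without KA_H replicate 2 or 3 (0.0579 and 0.0695). Stat4, Birc5 and Serpinb9 passed the filter through KA_H alone and had to differ.

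The calls Efcab1, Cfap300 and Dnal1 encode proteins tied to cilia and were also picked after their values were seen. Efcab1, a calcium-binding EF-hand gene, had 66.8, 57 and 46.3 TPM in KA_H and 0, 0.12 and 0 TPM in CTRL_L (adjusted p = 0.00606, limma). Cfap300, a cilia and flagella associated gene, had 51.7, 28.4 and 19.3 TPM in KA_H, and Dnal1, an axonemal dynein light chain gene, had 21.8, 10.2 and 19.8 TPM, both listed at 0 in all CTRL_L libraries (adjusted p = 0.0168 and 0.0184). Efcab1, Cfap300 and Dnal1 were under 1 TPM in all CTRL_L libraries, so they passed the filter through KA_H alone and had to differ. Efcab1 was called in all 6 fits that left out a library. Cfap300 missed the call without KA_H replicate 1 (0.0542) and Dnal1 without KA_H replicate 1 or 3 (0.0615 and 0.0695). Ciliated ependymal cells line the ventricles. Their 9 listed markers, 4 of them tested, 1 at an unadjusted p under 0.05 and 0 called by limma, summed to 397 to 637 TPM in KA_H and to 0, 277 and 465 TPM in CTRL_L, with 3 at 0 in all CTRL_L libraries. Their part in the cilia genes was not tested.

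The 19 lower entries were led by genes at or near 0 in KA_H. Among those given here, Atp8b1, Fbxo42, Nap1l5 and E330013P04Rik passed the filter through CTRL_L alone and had to differ. Atp8b1, a phospholipid flippase gene, had 0, 0.5 and 0 TPM in KA_H, 0.07, 0.05 and 0 TPM in KA_L and 100.5, 69.3 and 128 TPM in CTRL_L (log2 fold change -6.41, SE 1.38, adjusted p = 0.0314, limma). Zfp592, a zinc finger gene, had 8.42, 0.12 and 0.02 TPM in KA_H, 4.85, 1.62 and 0.54 TPM in KA_L and 125, 165 and 170.2 TPM in CTRL_L (adjusted p = 0.0184). Fbxo42, an F-box gene of ubiquitin ligases, had 0, 0.49 and 0.68 TPM in KA_H, 0.24, 0.13 and 0.4 TPM in KA_L and 38.7, 62.9 and 53.7 TPM in CTRL_L (adjusted p = 0.0192). In these genes KA_L stood with KA_H, as it did in Nap1l5, Tle2, Gm2956 and the lincRNA E330013P04Rik. Atp8b1 kept its call in 0 of the 6 fits that left out a library. Fbxo42 missed it without each KA_H library in turn (adjusted p = 0.0709 to 0.0880), and Zfp592 without KA_H replicate 2 or 3 (0.0793 and 0.0999).

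**Figure D4:**
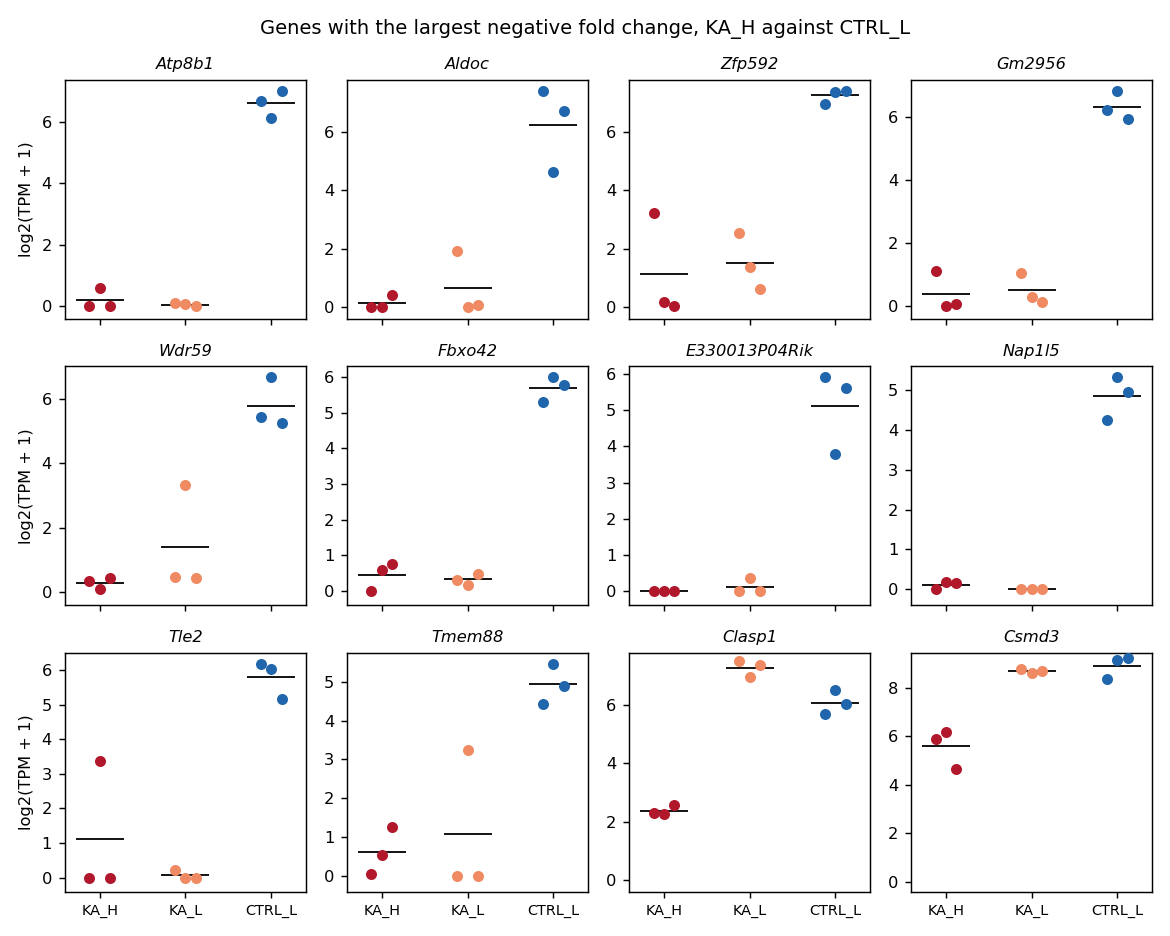
Level of the 12 genes with the largest negative fold change that met the naming rule, as log2(TPM + 1), in the KA_H, KA_L and CTRL_L libraries. Points are single libraries and black lines the mean of the 3 log2 values. KA_H is below CTRL_L in all 12 panels, and in Clasp1 and Csmd3 every KA_L library lies above every KA_H library.

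Aldoc, the brain isoform of aldolase and a marker of astrocytes, had 0, 0 and 0.33 TPM in KA_H, 2.76, 0 and 0.04 TPM in KA_L and 170.2, 23.9 and 105 TPM in CTRL_L (adjusted p = 0.0361, limma). It was the sole call among 25 tested glycolysis genes, whose median of -0.23 became 0.39 with upper-quartile scaling, and among 6 tested astrocyte markers. Its call held only without CTRL_L replicate 2 of the 6 fits, and Aldoc passed the filter through CTRL_L alone and had to differ. Slc1a3, the astrocyte glutamate transporter gene, had 51.2, 38.6 and 33.5 TPM in KA_H and 104, 129 and 81.3 TPM in CTRL_L, without overlap and without a call (adjusted p = 0.439). Of the 6 tested astrocyte markers 3 had a positive and 3 a negative fold change. Clu, on the positive side, overlapped, at 784, 962 and 767 TPM in KA_H and 0.03, 1194 and 740 TPM in CTRL_L (adjusted p = 0.569). The 20 astrocyte markers summed to 871 to 1122 TPM in KA_H and 450 to 1788 TPM in CTRL_L, 5 of them listed at 0 in all CTRL_L libraries and 6 in all KA_H libraries, and their part in the Aldoc result was not tested.

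Wdr59, a subunit of the GATOR2 complex that regulates mTORC1, had 0.28, 0.07 and 0.37 TPM in KA_H, 0.4, 9.07 and 0.35 TPM in KA_L and 42.8, 101 and 36.9 TPM in CTRL_L (adjusted p = 0.0184, limma). Tle2, a Groucho-type corepressor gene, had 0, 9.39 and 0 TPM in KA_H and 71.6, 64.1 and 34.7 TPM in CTRL_L (adjusted p = 0.0184). Nap1l5, an imprinted nucleosome assembly gene, had 0, 0.13 and 0.11 TPM in KA_H and 18, 39.3 and 30.2 TPM in CTRL_L (adjusted p = 0.0130). Tmem88, a membrane protein gene, had 0.03, 0.45 and 1.4 TPM in KA_H and 20.5, 43.2 and 28.8 TPM in CTRL_L (adjusted p = 0.0387). Wdr59 missed the call without each KA_H library in turn (adjusted p = 0.0653 to 0.0757), and Tle2 and Nap1l5 without KA_H replicate 1 (0.0916 and 0.0560) or 3 (0.112 and 0.0652). Tmem88 held it without CTRL_L replicate 1 alone. Wdr59 and Nap1l5 passed the filter through CTRL_L alone and had to differ. The neuron markers, all below the filter, summed to 0.08 to 2.92 TPM in KA_H and 21.4 to 66.8 TPM in CTRL_L, with 7 of 20 at 0 in all CTRL_L libraries, and the oligodendrocyte markers to 17.1 to 29.4 TPM in KA_H and 103 to 185 TPM in CTRL_L. Their part in the lower genes was not tested.

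The genes Csmd3, Clasp1, Gsk3b and Chd9 stayed at 1 TPM or more in all 6 libraries and had KA_L levels above those of KA_H. Csmd3, a large gene with CUB and Sushi domains, had 58.9, 71.7 and 24.2 TPM in KA_H, 435, 391 and 412 TPM in KA_L and 331, 568 and 590.0 TPM in CTRL_L (ratio of CTRL_L to KA_H means 9.63, log2 fold change -3.33, SE 0.59, adjusted p = 0.0138, limma). Clasp1, which stabilises microtubule plus ends, had 3.91, 3.81 and 4.94 TPM in KA_H, 184, 123 and 167 TPM in KA_L and 50.9, 90.6 and 64.3 TPM in CTRL_L (adjusted p = 0.0404). Gsk3b, a kinase of Wnt and tau biology, had 56.3, 29.9 and 17.6 TPM in KA_H, 203, 114 and 388 TPM in KA_L and 256, 369 and 235 TPM in CTRL_L (adjusted p = 0.0469). Chd9, a chromatin remodeller gene, had 158, 157 and 175 TPM in KA_H, 700.0, 437 and 421 TPM in KA_L and 652, 1186 and 461 TPM in CTRL_L (adjusted p = 0.0416). In all 4 every KA_L library was above every KA_H library. Csmd3 missed the call without KA_H replicate 3 (adjusted p = 0.0695), the calls of Clasp1 and Gsk3b held in 0 of the 6 fits, and that of Chd9 held without CTRL_L replicate 3 alone. Gsk3b and Chd9 were picked after their values were seen.

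Across all 121 calls the KA_L libraries stood in different places. Of the 102 higher entries, 58 were under 1 TPM in all 3 KA_L libraries, 90 had every KA_L value below every KA_H value, 17 had every KA_L value above every CTRL_L value and 7 had KA_L between the other groups with no overlap on either side. Of the 19 lower entries, 9 were under 1 TPM in all KA_L libraries, 15 had every KA_L value below every CTRL_L value and 4 had every KA_L value above every KA_H value. These counts describe the levels of 3 libraries and carry no test, since KA_L shares its letter with CTRL_L and its treatment with KA_H.

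Markers of cells other than microglia ranged widely between libraries. Choroid plexus markers summed to 33790 to 42107 TPM in KA_H, and CTRL_L spanned 140 to 40077 TPM. Ttr, the thyroid hormone carrier of the choroid plexus, had 23632, 24072 and 28110.1 TPM in KA_H, 31.6, 781 and 114 TPM in KA_L and 54.1, 20666 and 10235 TPM in CTRL_L (adjusted p = 0.464, limma). Pf4, a platelet and border macrophage gene, had 182, 70.5 and 436 TPM in KA_H, 0, 5.82 and 0 TPM in KA_L and 0, 0 and 14 TPM in CTRL_L (adjusted p = 0.0266), and it was the sole call among 10 tested border macrophage and monocyte markers. The Pf4 call held only without CTRL_L replicate 3 of the 6 fits. The 16 listed markers of that kind summed to 328 to 830 TPM in KA_H and 32.9 to 273 TPM in CTRL_L, and 6 were at 0 in all CTRL_L libraries. Ms4a7 had 9.95, 96.1 and 96.7 TPM in KA_H and 0.16, 0.01 and 0.01 TPM in CTRL_L (adjusted p = 0.0662). It passed the filter through KA_H alone, so the groups could not overlap. Endothelial markers summed to 131 to 916 TPM in KA_H and 95.4 to 183 TPM in CTRL_L, mural and fibroblast markers to 8.37 to 96.0 TPM in KA_H and 101 to 897 TPM in CTRL_L, and lymphocyte markers to 10.4 to 198 TPM in KA_H and 0.07 to 23.2 TPM in CTRL_L.

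**Figure D5:**
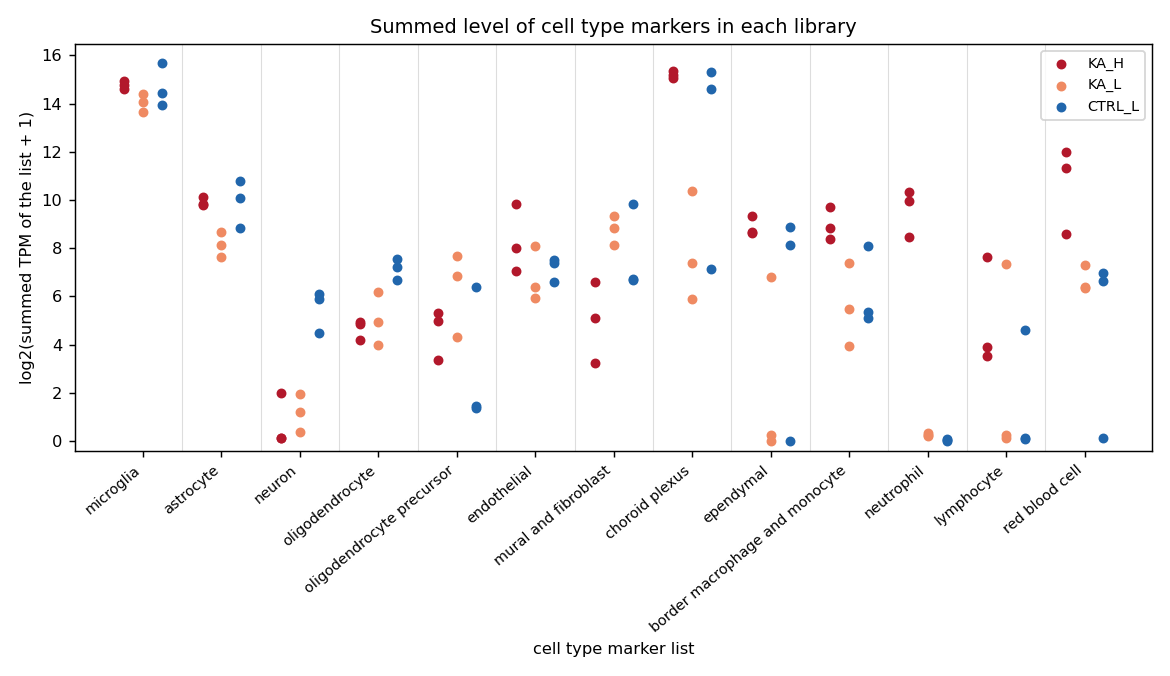
Summed level of each of 13 cell type marker lists, as log2(summed TPM + 1), in the KA_H, KA_L and CTRL_L libraries, with 1 point per library. Microglia markers are high in all 9 libraries shown, choroid plexus markers are high in KA_H and in 2 of the 3 CTRL_L libraries, and neutrophil markers are near 0 in KA_L and CTRL_L.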

How the data were processed

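RNA of 15 brain libraries in 5 groups of 3 was measured by RNA sequencing. The deposited table gives TPM, which the authors scaled for transcript length and library size. The submitters' processing notes name STAR and GRCh38, a human assembly, while the identifiers in the file are mouse ones. No source used here gives the counting tool or the annotation. Of 55416 Ensembl identifiers, 52083 matched a symbol, and 10548 further entries were assembled loci. TPM keeps no read depth, so read depth is unknown and intervals for counting error could not be had.

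Entries that reached 1 TPM in 3 or more of the 6 compared libraries were tested on log2(TPM + 1) with limma 3.58.1 (R 4.3.3), with 1 mean per group over all 15 libraries, a mean-variance trend and Benjamini-Hochberg adjustment over 12221 entries at 0.05. The fit had 10 residual degrees of freedom and was tested on simulated data, where it made few false calls and missed most of the changes put in. An exact 0 can be a failed estimate and is given as listed at 0. Promoter windows came from RefSeq on GRCm38.p6.

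Genes were named by rule. The rule took Apoe, the 12 largest called changes in each direction without overlap at a mean of 20 TPM or more in the higher group, up to 6 called and 3 other members per list, the 10 most abundant genes and the cell type markers. Genes outside it (Abca1, Ccl12, Cd74, Cfap300, Chd9, Dnal1, Dusp1, Efcab1, Fos, Gsk3b, H2-K1, Havcr2, Ly86, Lyz2, Mt1, Plin2, Psat1, Rpl41, Rps25, Serpinb9, Stat4 and others given without a test of their own) were chosen after their values were seen. Not every gene the rule names is reported here. Members and lists were chosen with earlier results of these data known. The alternatives tried were other pseudocounts, filters, scalings, sets of libraries, limma options, a replicate block and leaving out each library in turn.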

Additional observations from a re-analysis of the deposited data

How the results depend on the processing

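The counts of calls depended on settings. Of the 121 calls (102 higher, 19 lower) none changed sign under the 21 alternatives. Without overlap between the groups, only the scalings could have changed one. A pseudocount of 5 gave 71 (55 higher), no filter 50 (40 higher, 10 lower), 1 TPM in 3 of all 15 libraries 66 (55 and 11), a mean of 5 TPM over the 6 libraries 32 (29 and 3) and 1 TPM in all 6 libraries 6 (5 and 1). Upper-quartile scaling gave 278, with 260 higher and 18 lower, 93.5% of calls higher. The fit to the 9 KA_H, KA_L and CTRL_L libraries gave 74 (67 and 7) and that to the 6 compared libraries 6 (6 and 0), with 1410 entries at an unadjusted p under 0.05. Leaving out 1 library gave 24 to 112 calls, 23 to 87 higher and 1 to 25 lower. The median log2 fold change of all tested entries, 0.03, became -0.21 with the mean filter, -0.37 with the filter on all 6 libraries and 0.52 with upper-quartile scaling, and ran from -0.08 to 0.04 without single libraries. The stricter filters test fewer or other entries, and the smaller fits have fewer libraries to estimate the spread; otherwise the cause was not tested. The other settings (a pseudocount of 0.1, quantile normalization, removal of assembled loci, no trend, robust fit) gave 107 to 162 calls. Same-numbered libraries did not deviate together (correlations 0.0221, 0.0232 and 0.00526). With the replicate number as a block there were 8 calls (8 higher, 0 lower) over the 6 libraries and 79 (65 higher, 14 lower) over all 15.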

Other observations

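Antioxidant genes had mostly positive fold changes in KA_H. Of 28 tested antioxidant genes 0 were called by limma, against 6 at an unadjusted p under 0.05, all higher, beside 854 of all 12221 tested entries. The median of the 28 was 1.00. Mt1, a metallothionein gene, had 1009, 1972 and 1433 TPM in KA_H and 439, 417 and 636 TPM in CTRL_L (adjusted p = 0.0548). Gpx3, a secreted glutathione peroxidase gene, had 10.2, 18.3 and 9.14 TPM in KA_H and was listed at 0 in all 3 CTRL_L libraries (adjusted p = 0.0702). The groups did not overlap in Mt1, and could not in Gpx3, which passed the filter through KA_H alone.

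The nuclear-retained RNA Malat1 had 8374, 6141 and 3687 TPM in KA_H and 15776, 12823 and 8659 TPM in CTRL_L, with no overlap and no call (log2 fold change -1.07, SE 0.30, adjusted p = 0.104, limma). Of 12 tested pan-reactive and neurotoxic astrocyte genes 0 were called by limma, with a median of 1.76. At an unadjusted p under 0.05 there were 5, all higher, beside 854 of all 12221 tested entries. Lgals1, which encodes galectin-1, had 184, 221 and 395 TPM in KA_H and 0.28, 33.2 and 0 TPM in CTRL_L (adjusted p = 0.0847). Proteasome genes showed no such pattern, with 0 of 28 called by limma and 0 at an unadjusted p under 0.05.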
